A study of Mus musculus with 6 samples.

Results

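Immunoglobulin heavy and light chain genes were described in murine tissue entangled with engineered cartilage. All genes of the deposited count table were taken whose symbol begins as a heavy chain gene (Ighv, Ighd, Ighj, Ighm, Ighg, Igha, Ighe), a kappa gene (Igkv, Igkj, Igkc) or a lambda gene (Iglv, Iglj, Iglc), without Ighmbp2, a helicase gene whose name begins the same way. The rule took 397 of 48440 genes. Of these, 208 had at least 1 read, and the 142 with at least 10 counts summed over the 6 samples are described here, out of 19611 genes of the table with as many. They were 8 heavy constant genes, the kappa constant gene Igkc, 3 of 4 lambda constant genes, 51 of 185 heavy variable (IGHV) segments, 73 of 162 kappa variable (IGKV) segments, 3 lambda variable (IGLV) segments and 3 of 34 joining and diversity segments. Among the members just inside the minimum, Ighv1-53 and Igkv3-9 had 10 counts, and just outside it Ighv6-7 and Igkj4 had 9.

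An antibody is built from heavy and light chains, and each chain gene is assembled in a developing B cell by joining a variable segment to joining segments, with a diversity segment between them in the heavy chain. The heavy constant gene gives the isotype: naive B cells use Ighm and Ighd, and activated cells can switch to an Ighg gene, Ighe or Igha. Plasma cells, which secrete antibody, hold very large amounts of immunoglobulin mRNA. Most mouse antibodies carry a kappa light chain.

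The study asked how the antiangiogenic kinase inhibitor axitinib, released from a membrane, changes the tissue around an implant. Cartilage engineered from rabbit bone marrow stromal cells on a PLGA scaffold was wrapped in an electrospun PCL/collagen membrane with 0% or 3% axitinib and placed under the skin of male BALB/c nude mice. Samples were harvested at week 12 together with the entangled murine tissue, and their RNA was sequenced. Whether rabbit RNA of the construct was in the libraries is not stated. There were 3 samples with the 0% membrane (0%-Axitinib group) against 3 with the 3% membrane (3%-Axitinib group). The 0%-Axitinib samples carry the label untreated, and were read as wrapped in a drug-free membrane because the deposited protocol has only these 2 membranes. The samples are not tied to named mice, and each mouse carried a pair of constructs of the same group, so n counts samples and the p-values measure the spread between samples. Nude mice lack a thymus and with it most mature T cells, while their B cells remain, so antibody responses that need T cell help are limited in this host. The depth was 17761968, 16716411 and 18005908 counts on genes in the 0%-Axitinib samples and 9225518, 11686084 and 18403795 in the 3%-Axitinib samples. At these depths 3 counts, used as the limit of detection, came to between 0.163 and 0.325 CPM (counts scaled to a common library size).

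Some libraries stood apart from the rest. In 0%-Axitinib replicate 3, 151 of 15257 tested genes lay at least 8-fold above the highest of the other samples, against between 0 and 6 genes in each of the others. This library alone held reads of Rag1 (65 counts), Rag2 (15), Dntt (110), Igll1 (85) and Vpreb2 (9), which act in the gene rearrangement and surrogate light chain of B cell precursors. It also held 8570 counts of Prg2, the eosinophil major basic protein, against 16 and 25 in the other 0%-Axitinib samples, and 6008 of the proliferation gene Mki67, against 401 and 376. In 3%-Axitinib replicate 1, 48.4% of reads were unmapped, against 29.2% and 16.8% in the other samples of that group and 5.47%, 3.84% and 14.9% in the 0%-Axitinib samples. Skeletal muscle genes were high in 3%-Axitinib replicates 1 and 3, with a summed level of 14725 and 7959 CPM, against 21.3 in 3%-Axitinib replicate 2 and 144, 7.73 and 14.9 in the 0%-Axitinib samples. The part of these differences in the results below was not tested, and results that rest on 0%-Axitinib replicate 3 are given with and without it.

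Immunoglobulin genes were far lower in the 3%-Axitinib group. Their summed level was 268, 1607 and 2379 CPM in the 0%-Axitinib samples against 44.1, 27.0 and 54.8 CPM in the 3%-Axitinib samples, after scaling by the trimmed mean of M values (TMM). The lowest 0%-Axitinib sample was 4.89-fold above the highest 3%-Axitinib sample, and the group means of 1418 ± 1068 and 42.0 ± 14.0 CPM (SD, n = 3) differed 33.8-fold. The means differed 22.4-fold without 0%-Axitinib replicate 3. In this bulk tissue, fewer cells of a type and less RNA per cell cannot be told apart. The spread inside the 0%-Axitinib group was itself wide, since replicate 1 held 5151 counts of these genes, replicate 2 held 27640 and replicate 3 held 43936.

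The drop was uneven between classes. Heavy constant genes summed to 169, 800 and 1314 CPM against 38.8, 26.1 and 53.1 CPM, a 19.3-fold difference of means. IGKV segments summed to 34.9, 266 and 205 CPM against 1.10, 0.0908 and 0.404 CPM, a 317-fold difference. IGHV segments summed to 7.03, 94.3 and 53.6 CPM against 0.548, 0.0908 and 0 CPM. No 3%-Axitinib sample reached any 0%-Axitinib sample in these 3 classes, in the kappa constant gene, in the lambda constant genes or in the IGLV segments. Only the joining and diversity segments, with between 1 and 42 counts a sample, overlapped between the groups. The folds of the variable segments rest on 18 IGKV and 6 IGHV counts in the 3%-Axitinib group and are uncertain. With a single sample left out they ran from 224-fold to 681-fold for IGKV and from 142-fold to 1137-fold for IGHV, against 12.3-fold to 26.9-fold for heavy constant genes.

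Most described members were not detected in the 3%-Axitinib group. Of the 142, 128 had 0 counts in every 3%-Axitinib sample, a pattern met by 2.5% of the 19611 genes with at least 10 counts, and 7 more had between 1 and 3 counts there. Members were kept by counts summed over both groups, so these 128 reached the minimum through the 0%-Axitinib samples alone, and the selection builds part of this pattern in. The 7 members with at least 4 counts were Ighm, Ighg1, Igha, Ighd, Igkc, Igkv14-111 and Igkv1-135. In 71 members the groups did not overlap and the 3%-Axitinib values were the lower ones, against 14.9% of the 19611 genes. Most other members could not separate in this way, as 67 were at 0 counts in 0%-Axitinib replicate 1. A 3%-Axitinib sample exceeded the lowest 0%-Axitinib sample in 5 members, namely Igha, Iglc3, Ighj1, Ighv1-47 and Igkv15-103. The highest CPM fell in 0%-Axitinib replicate 2 for 72 members, in replicate 3 for 65 and in replicate 1 for 5, which were Ighe, Ighv11-2, Ighv1-55, Igkv14-126 and Igkv4-58.

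Ighm, the mu constant gene of IgM (chr12:113418558-113422730, minus strand, GRCm38), was the member that remained best measured in both groups. It had 128, 202 and 762 CPM in the 0%-Axitinib samples against 36.8, 25.3 and 51.2 CPM in the 3%-Axitinib samples, from 2464, 3469, 14061, 336, 279 and 887 counts. All 0%-Axitinib samples were above all 3%-Axitinib samples, and replicate 3 was the highest by a wide margin. The log2 fold change was -3.27 (SE 0.72), with an adjusted p of 0.0972 by edgeR's quasi-likelihood test with Benjamini-Hochberg adjustment. Without 0%-Axitinib replicate 3 it was -2.13 (SE 0.34), with an adjusted p of 0.0379 by the same edgeR test and Benjamini-Hochberg adjustment, and over the alternatives the adjusted p of Ighm ran from 4.39e-05 (DESeq2) to 0.281.

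Ighg1, the constant gene of IgG1 (chr12:113325240-113330523, minus strand), had 38.6, 470 and 291 CPM in the 0%-Axitinib samples against 0.658, 0 and 0.693 CPM in the 3%-Axitinib samples. It was nearly absent from the 3%-Axitinib group, where 6, 0 and 12 counts were found, and its groups did not overlap. Its log2 fold change was -9.14 (SE 1.30), the adjusted p 0.0965 by edgeR with Benjamini-Hochberg adjustment. With a single sample left out it ran from -8.44, without 0%-Axitinib replicate 2, to -9.71, without 3%-Axitinib replicate 3. The other IgG genes were close to the limit of detection in 0%-Axitinib replicate 1 as well. Ighg2c had 3, 950 and 494 counts, Ighg2b 1, 504 and 56, and Ighg3 1, 377 and 346, and all were at 0 in the 3%-Axitinib samples. Against a floor of 3 counts per library, their mean levels were at least 106-fold, 41.8-fold and 52.6-fold higher in the 0%-Axitinib group, carried by replicates 2 and 3 for Ighg2c and Ighg3 and mainly by replicate 2 for Ighg2b. Without 0%-Axitinib replicate 2 these limits were 52.1-fold for Ighg2c, 5.97-fold for Ighg2b and 36.4-fold for Ighg3. The reference genome is that of the C57BL/6 strain, which has Ighg2c where BALB/c mice have Ighg2a, and the table had 0 genes named Ighg2a. The level printed for Ighg2c is therefore that of reads that matched this reference gene best.

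Igha, the constant gene of the mucosal isotype IgA (chr12:113254830-113260236, minus strand), ranged widely inside the 0%-Axitinib group, with 1, 335 and 3106 counts (0.0520, 19.5 and 168 CPM). In the 3%-Axitinib samples it had 5, 2 and 6 counts (0.548, 0.182 and 0.346 CPM). The groups overlapped, since 0%-Axitinib replicate 1 was below all 3%-Axitinib samples, and the gene did not pass the filter on low counts. Ighd, which naive B cells express with Ighm, had 1.09, 2.09 and 44.1 CPM against 0.768, 0.545 and 0.808 CPM. Replicate 3 stood far above the other 0%-Axitinib samples, and those lay just above the 3%-Axitinib samples. Its log2 fold change of -4.46 (SE 1.47) had an unadjusted p of 0.0192 and an adjusted p of 0.145 by edgeR with Benjamini-Hochberg adjustment. Without 0%-Axitinib replicate 3 the log2 fold change of Ighd was -1.16 (SE 0.51) and the edgeR unadjusted p 0.0629, past the limit of 0.05. Ighe, the constant gene of IgE, had 8, 4 and 2 counts in the 0%-Axitinib samples and 0 in the 3%-Axitinib samples, too few for a fold change.

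**Figure D1:**
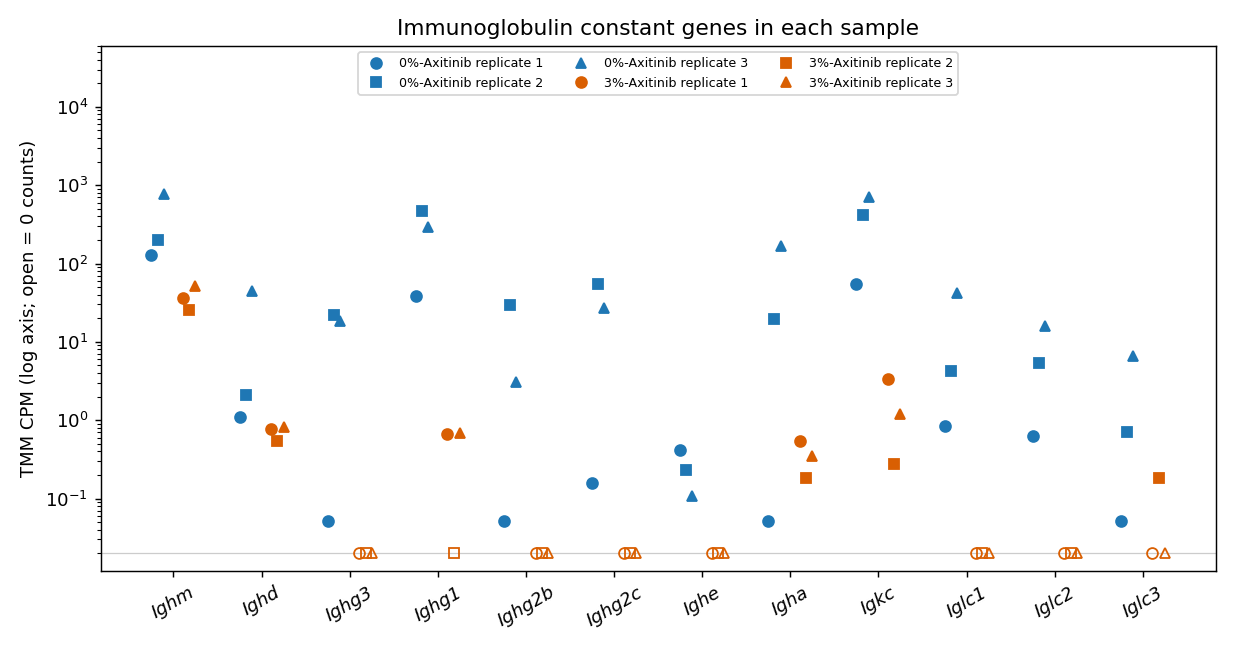
TMM-scaled CPM (log axis) of the 12 described constant genes in each of the 6 samples, with 0%-Axitinib samples in blue and 3%-Axitinib samples in orange, and open symbols on the grey line for 0 counts. Ighm stayed between 25.3 and 51.2 CPM in the 3%-Axitinib samples, while Ighg3, Ighg2b, Ighg2c, Ighe, Iglc1 and Iglc2 had 0 counts there.

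Isotype makeup differed between the groups and, more widely, among the 0%-Axitinib samples. Ighm made up 76.0% of heavy constant counts in 0%-Axitinib replicate 1 (95% interval 74.5 to 77.5, exact Clopper-Pearson), 25.2% in replicate 2 (24.5 to 26.0) and 58.0% in replicate 3 (57.3 to 58.6). In the 3%-Axitinib samples it made up 94.9% (92.1 to 97.0), 97.2% (94.6 to 98.8) and 96.5% (95.1 to 97.6). All 3%-Axitinib shares were above all 0%-Axitinib shares, described here without a test. These intervals treat each read as a separate molecule, which amplified reads lacking molecular tags need not be, so they may be too narrow. They also leave out the spread between samples.

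IgG genes together took 23.0%, 72.0% and 25.9% of heavy constant counts in the 0%-Axitinib samples and 1.69%, 0% and 1.31% in the 3%-Axitinib samples. The 0 of 287 counts in 3%-Axitinib replicate 2 allows a share of up to 1.28%. Replicate 2 was thus the 0%-Axitinib sample in which switched IgG transcripts dominated, with Ighg1 alone at 58.7% and Ighg2c at 6.91% (50.6% and 11.6% by counts per exon length). Igha took 0.0309%, 2.44% and 12.8% in the 0%-Axitinib samples, and its share was highest in replicate 3. Ighd took 0.648%, 0.262% and 3.36% in the 0%-Axitinib samples against 1.98%, 2.09% and 1.52%, so that its share overlapped between the groups. Counts divided by exon length gave Ighm a share of 81.0%, 29.9% and 64.0% in the 0%-Axitinib samples and 95.8%, 97.4% and 97.1% in the 3%-Axitinib samples.

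**Figure D2:**
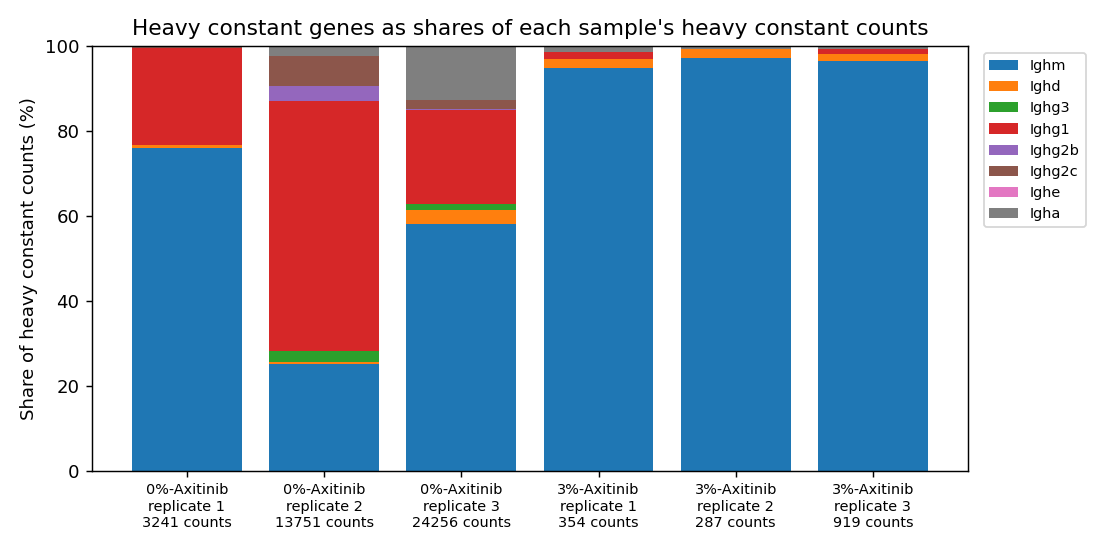
Share of each heavy constant gene in the heavy constant counts of each sample (%), stacked to 100, with the number of counts under each bar. Ighm takes between 25.2% and 76.0% in the 0%-Axitinib samples and between 94.9% and 97.2% in the 3%-Axitinib samples, which rest on far fewer counts.

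Igkc, the only kappa constant gene (chr6:70726435-70726966, plus strand), showed a steeper difference than Ighm. It had 54.3, 419 and 712 CPM in the 0%-Axitinib samples against 3.40, 0.273 and 1.21 CPM in the 3%-Axitinib samples, the latter from 31, 3 and 21 counts. The groups were far apart, and the lowest 0%-Axitinib sample was 16.0-fold above the highest 3%-Axitinib sample. The log2 fold change was -7.96 (SE 1.30), with an adjusted p of 0.0965 by edgeR with Benjamini-Hochberg adjustment. With a single sample left out it ran from -7.25 (SE 1.15), without 0%-Axitinib replicate 3, to -8.945, without 3%-Axitinib replicate 1.

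The ratio of Ighm to Igkc counts set these heavy and light constant genes side by side within a library, where scaling between libraries plays no part. It was 2.36 (95% interval 2.20 to 2.54), 0.482 (0.463 to 0.502) and 1.07 (1.04 to 1.09) in the 0%-Axitinib samples. In the 3%-Axitinib samples it was 10.8 (7.49 to 16.2), 93 (31.5 to 454) and 42.2 (27.5 to 68.6). All 3%-Axitinib ratios lay above all 0%-Axitinib ratios, and so did the lower ends of their counting intervals. Per exon length the ratios were 0.666, 0.136 and 0.302 against 3.06, 26.2 and 11.9, so that Ighm was below Igkc in the 0%-Axitinib samples and above it in the 3%-Axitinib samples. An assembled antibody holds as many light chains as heavy chains. Ighm alone held 83.6%, 93.9% and 93.5% of all immunoglobulin counts in the 3%-Axitinib samples, against 47.8%, 12.6% and 32.0% in the 0%-Axitinib samples. Variable segments held 3.73%, 0.673% and 0.843% against 16.2%, 23.4% and 12.0%. The low counts of Igkc and of variable segments beside Ighm in the 3%-Axitinib group are given as measured, and their source was not tested.

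Lambda light chains were a minority. Lambda constant genes made up 2.71% (95% interval 1.82 to 3.86), 2.41% (2.07 to 2.79) and 8.32% (7.87 to 8.79) of light constant counts in the 0%-Axitinib samples. Replicate 3 had the highest lambda share, and its interval did not reach those of the other samples. These intervals, too, treat reads as separate molecules and leave out the spread between samples. From variable segments the lambda share was 4.01%, 5.89% and 12.2%, with replicate 3 again the highest. Iglc1 had 16, 73 and 767 counts and Iglc2 had 12, 93 and 296, and both had 0 in the 3%-Axitinib samples, at least 60.2-fold and 28.5-fold lower against the floor of 3 counts per library. These limits were 9.83-fold and 11.7-fold without 0%-Axitinib replicate 3. Iglc3 had 1, 12 and 123 counts against 0, 2 and 0, and its exon overlaps that of 2010309G21Rik, as that of Iglc2 overlaps Iglj2. Iglv1, the lambda segment with most reads, had 18, 220 and 448 counts against 0, 0 and 1. The ratio of counts pooled by group, scaled to library size, was 468, with a counting interval of 83.7 to 18518. The edgeR log2 fold change of Iglv1 was -8.54, and -7.64 (SE 1.52) without 0%-Axitinib replicate 3. Iglv2 had 9, 60 and 43 counts and Iglv3 had 1, 6 and 32, all in the 0%-Axitinib group.

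Across all genes, edgeR tested 15257, and 14 of the 142 members passed its filter on low counts. Each of these 14 met the study's criterion (1.5-fold or more, with unadjusted p no higher than 0.05), applied here to edgeR's p-values. These are not the study's own calls. All 14 met it with a lower level in the 3%-Axitinib group, against 11.7% of tested genes, and none was higher, against 9.54%. They were Ighm, Ighd, Ighg1, Igkc, Iglc1, Iglc2, Iglv1, Ighv2-9, Igkv14-111, Igkv1-110, Igkv16-104, Igkv4-68, Igkv4-59 and Igkv8-24. All but Ighm passed the filter only through the 0%-Axitinib samples, so a lower level in the 3%-Axitinib group was built into their selection. By an adjusted p of at most 0.05 edgeR with Benjamini-Hochberg adjustment called 0 of the 14, against 14 by unadjusted p, where 23.5% of tested genes passed, and it called 1 gene (0.00655%) in the whole table. DESeq2 called 13 members by its adjusted p, where it called 1960 of 15083 genes, and limma-voom called 0, where it called 2 of 15257, with 13 members by unadjusted p, all lower by the criterion, as were 9.73% of genes. Without 0%-Axitinib replicate 3, edgeR with Benjamini-Hochberg adjustment called 1252 of 15690 genes and, among the members, the 7 genes Ighg1, Ighm, Igkc, Igkv4-59, Igkv8-24, Igkv14-111 and Iglv1, with adjusted p between 0.0379 and 0.0437. Over the alternatives the adjusted p of Igkc ran from 1.38e-14 (DESeq2) to 0.280, and that of Ighg1 from 2.60e-08 (DESeq2) to 0.280.

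Variable segments were counted under the C57BL/6 reference segment that reads matched best, so a BALB/c segment may stand under another name. By these counts, each 0%-Axitinib sample had its own leading segments. Replicates 1, 2 and 3 held 135, 1621 and 990 IGHV counts on 21, 72 and 71 segments, and 670, 4572 and 3777 IGKV counts on 44, 79 and 81 segments. Replicate 1 had the fewest reads and the fewest segments. Replicate 1 also had the fewest segments at an equal number of reads: thinned to 135 reads, replicates 2 and 3 had an expected 37.4 and 40.7 IGHV segments against 21 in replicate 1, and thinned to 670 reads 62.6 and 69.5 IGKV segments against 44. Thinning treats amplified reads as separate molecules, which they need not be, and accounts only for the number of reads. The effective number of segments, the inverse of the chance that a pair of reads comes from the same segment, was 4.99, 14.6 and 17.6 for IGHV and 5.62, 18.4 and 22.8 for IGKV. The reads of replicate 1 were thus concentrated on fewer segments than those of the other samples.

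In 0%-Axitinib replicate 1, Ighv11-2 took 36.3% of IGHV counts (95% interval 28.2 to 45.0, 49 of 135) and Igkv14-126 took 34.8% of IGKV counts (31.2 to 38.5, 233 of 670). The same segments took 0.308% and 0.416% in replicate 2, and 0.303% and 0.185% in replicate 3. Both were named after their values were seen. Ighv11-2 and Igkv14-126 are known as the heavy and light segments of mouse B-1 cell antibodies to phosphatidylcholine, but which heavy chain was paired with which light chain cannot be read from bulk counts. Both had 0 counts in the 3%-Axitinib samples.

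In 0%-Axitinib replicate 2 the leading segments were Ighv2-9, with 18.4% of IGHV counts (16.6 to 20.4), and Igkv14-111, with 14.0% of IGKV counts (638 of 4572). Ighv2-9 was also second in replicate 1, at 23.0%, and took 4.85% in replicate 3. Igkv14-111 took 21.3% in replicate 1 and 2.44% in replicate 3. Some other segments were nearly restricted to replicate 2 among the 0%-Axitinib samples. Igkv12-98 had 0, 371 and 1 counts, Ighv6-6 had 0, 205 and 5, Ighv3-4 had 0, 94 and 3, and Ighv5-4 had 0, 77 and 7. Igkv3-4 had 9, 315 and 13 counts and Igkv1-117 had 7, 429 and 62, both highest in replicate 2. Igkv1-110 had 30, 264 and 61 counts, and was also among the 5 leading IGKV segments of replicate 1.

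In 0%-Axitinib replicate 3, Ighv5-17 led with 16.6% of IGHV counts (14.3 to 19.0), and Igkv6-20 led with 12.9% of IGKV counts (11.9 to 14.0). Igkv6-20 had 0, 51 and 488 counts over the 0%-Axitinib samples, and Igkv16-104 had 11, 49 and 348. Ighv5-17 had 3, 17 and 164 counts and Ighv9-3 had 0, 29 and 102. All 4 were highest in replicate 3. Other segments were shared by replicates 2 and 3, such as Ighv14-1 with 0, 76 and 63 counts and Igkv10-96 with 2, 276 and 112. Of the 5 leading IGKV segments, replicates 1 and 2 shared 1, and replicate 3 shared 0 with either. Of the 5 leading IGHV segments, replicates 2 and 3 shared 2, and replicate 1 shared 1 with each of them. At 1 read or more, 18 IGHV and 41 IGKV segments were found in all 3 of these samples, and 28 and 13 in a single sample.

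**Figure D3:**
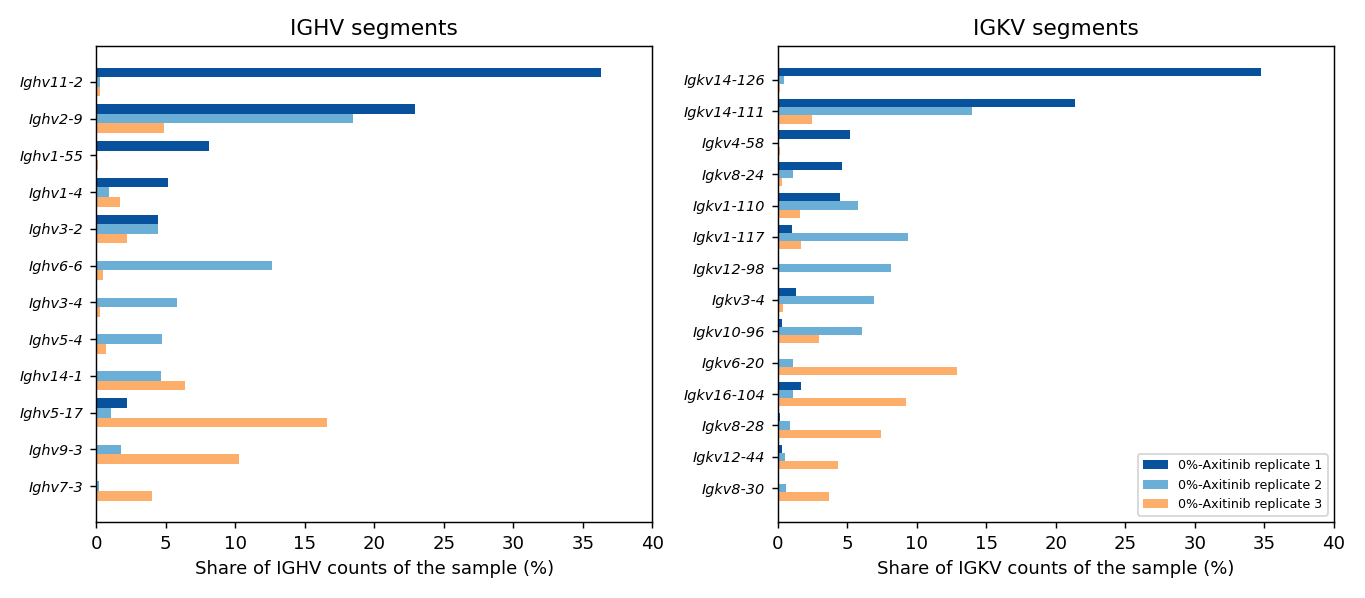
Share of the IGHV counts (left) and IGKV counts (right) of each 0%-Axitinib sample (%) taken by each segment that was among the 5 leading segments of at least 1 of these samples. Ighv11-2 and Igkv14-126 lead replicate 1 with 36.3% and 34.8% and take under 1% in replicates 2 and 3.

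The coding ends of the 6 leading segments are shown because they hold the start of the third complementarity-determining region, the most variable part of an antibody. In capitals is the last in-frame cysteine codon (TGT or TGC), which precedes that region, and the letters after it are the germline bases before the junction. They were read from GENCODE M21 transcripts and lie at chr12:114048241-114048296 (Ighv11-2, minus strand), chr12:113879096-113879151 (Ighv2-9, minus strand), chr12:113859149-113859202 (Ighv5-17, minus strand), chr6:67896572-67896642 (Igkv14-126, plus strand), chr6:68256799-68256869 (Igkv14-111, plus strand) and chr6:70335841-70335911 (Igkv6-20, minus strand) in GRCm38.
Ighv11-2: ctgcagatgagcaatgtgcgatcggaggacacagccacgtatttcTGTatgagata
Ighv2-9: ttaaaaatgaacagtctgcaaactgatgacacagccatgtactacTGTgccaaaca
Ighv5-17: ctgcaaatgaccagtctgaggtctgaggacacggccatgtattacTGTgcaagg
Igkv14-126: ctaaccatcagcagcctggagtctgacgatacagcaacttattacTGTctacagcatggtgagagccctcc
Igkv14-111: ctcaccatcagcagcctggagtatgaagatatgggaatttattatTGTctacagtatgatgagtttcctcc
Igkv6-20: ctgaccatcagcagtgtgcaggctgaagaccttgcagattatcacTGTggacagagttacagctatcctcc
These are reference sequences, and those expressed in BALB/c tissue may differ by strain and by somatic mutation, which counts do not show.

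The leading kappa segments of replicates 1 and 2 belong to the same family. Igkv14-126 and Igkv14-111 were identical at 323 of 353 aligned coding bases (91.5%), and each was the closest to the other among the described IGKV segments. Their last 150 coding bases follow, from chr6:68256720-68256869 and chr6:67896493-67896642, both on the plus strand of GRCm38, with the 20 bases at which they differ in capitals.
Igkv14-111: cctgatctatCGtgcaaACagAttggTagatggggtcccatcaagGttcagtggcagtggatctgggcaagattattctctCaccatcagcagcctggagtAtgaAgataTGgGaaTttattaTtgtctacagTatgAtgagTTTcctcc
Igkv14-126: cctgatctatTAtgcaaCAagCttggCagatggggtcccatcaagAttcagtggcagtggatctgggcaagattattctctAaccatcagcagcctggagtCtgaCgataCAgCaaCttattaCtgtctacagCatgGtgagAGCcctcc
No stretch of 50 bases of either transcript was found in a transcript of another gene, so 0% of either was shared, and reads of this length without a mismatch could be told apart. Ighv11-2 shared 38.6% of such stretches with Ighv11-1, and Igkv6-20 shared 64.1% with Igkv6-29. Reads that STAR placed at several positions were not counted, so levels of segments with shared stretches are uncertain. Of the 140 members with a transcript of that name, 110 shared at least 1 stretch with another gene and 12 shared over 50%, with a median of 20.7%. The constant genes Ighm, Ighd, Igha, Ighe, Igkc and Iglc1 shared 0%, and Ighg2c shared 5.49%.

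Summed by family, the segments differed in the 0%-Axitinib sample in which their share was highest. The IGKV14 family took 56.1%, 14.7% and 3.60% of IGKV counts, and the IGHV11 family 37.0%, 0.308% and 0.303% of IGHV counts, both highest in replicate 1. The IGHV6 family was highest in replicate 2, at 0.741%, 15.7% and 2.42%, and the IGHV5 family in replicate 3, at 2.22%, 7.09% and 20.9%. The large IGHV1 family, with 93 genes in the table, took a similar share in each sample, at 25.2%, 22.2% and 23.3%. Segments annotated as pseudogenes held 8.28% of IGHV counts and 0.907% of IGKV counts. Among them, Ighv3-2 was the most abundant IGHV pseudogene of the C57BL/6 reference, with 6, 72 and 22 counts. Joining segments are too short to hold many reads: Ighj1 had 3, 7 and 4 counts against 2, 0 and 1, a ratio of 3.18 with a counting interval of 0.889 to 17.3, Igkj5 had 0, 7 and 11 and Ighj4 had 1, 6 and 5, both with 0 in the 3%-Axitinib samples.

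The 3%-Axitinib samples held 15, 2 and 8 counts on variable segments in all. Igkv14-111 had 7 counts in replicate 1, at 0.768 CPM against 7.44, 37.1 and 4.98 CPM in the 0%-Axitinib samples. Its groups did not overlap, and the log2 fold change was -6.23 (SE 1.48), with an adjusted p of 0.0986 by edgeR with Benjamini-Hochberg adjustment. With a single sample left out it ran from -4.78, without 0%-Axitinib replicate 2, to -11.10, without 3%-Axitinib replicate 1, the only 3%-Axitinib sample with reads of Igkv14-111. Igkv1-135 had 0, 1 and 3 counts against 10, 74 and 75. Ighv3-1, Ighv1-10, Igkv5-40-1 and Igkv12-40 had reads only in the 3%-Axitinib samples, with no more than 2 counts each, under the limit of detection. The makeup of variable segments in the 3%-Axitinib group could not be described from so few counts.

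Genes of B cells and plasma cells were read beside the immunoglobulin genes, each list against a median log2 fold change of -0.034 over all tested genes, of which 11.7% were lower by the criterion. Without 0%-Axitinib replicate 3 the median over all tested genes was 0.02, and 13.7% were lower and 14.5% higher. In the B cell list, 10 of 14 tested genes were lower by the criterion and 0 higher, with a median of -1.90, and 7 of 14 were lower without 0%-Axitinib replicate 3, with a median of -1.29. Of the 10, Cd72, Cd22 and Btk reached the filter's cutoff of 0.580 CPM in every 3%-Axitinib sample. The other 7, among them Ms4a1 and Cd79a, passed it through the 0%-Axitinib samples, so their lower level was built into their selection. Ms4a1, which encodes the B cell antigen CD20, had 33, 18 and 260 counts against 0, 1 and 0 and fell by the criterion (log2 fold change -7.31, SE 1.61). Cd79a, a signalling chain of the B cell receptor, had 32, 40 and 1854 counts against 6, 6 and 9 and fell as well (-5.92, SE 1.79). Their log2 fold changes were -5.29 (SE 0.97) for Ms4a1 and -1.80 (SE 0.45) for Cd79a when 0%-Axitinib replicate 3 was left out. Ms4a1 and Cd79a were thus highest in replicate 3, while Ighg1 was highest in replicate 2. The most abundant genes of this list, Cd37, Blnk, Cd72 and Btk, had log2 fold changes of -0.21, -0.87, -0.91 and -0.78, of which those of Cd72 and Btk met the criterion, while without 0%-Axitinib replicate 3 Btk lost it (-0.49, unadjusted p of 0.0600 by edgeR) and Blnk gained it (-1.15, SE 0.34). The list summed to 512, 634 and 950 CPM against 368, 413 and 492 CPM.

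In the plasma cell list, 7 of 17 tested genes were lower by the criterion and 0 higher, with a median of -0.88, and 7 of 17 were lower without 0%-Axitinib replicate 3, with a median of -0.62. Among its members is Prg2, the eosinophil gene named above, with 464 CPM in 0%-Axitinib replicate 3 and under 2 CPM in every other sample. Leaving it out, an alternative chosen after seeing the data, gave 6 of 16 genes lower and a median of -0.73. Of the 7, Slamf7, Edem1 and Prdm1 reached the filter's cutoff in every 3%-Axitinib sample, while Jchain, Mzb1, Pou2af1 and Prg2 passed it through the 0%-Axitinib samples, which builds in their direction. Jchain, which joins IgM and IgA into polymers, had 389, 1639 and 3499 counts against 4, 1 and 11, with no overlap (log2 fold change -7.92, SE 1.06). Mzb1, a chaperone of antibody-secreting cells, had 15, 77 and 316 counts against 1, 5 and 4 (-4.76, SE 1.21). Jchain had -7.09 (SE 0.87) and Mzb1 -3.26 (SE 0.91) without 0%-Axitinib replicate 3. Jchain and Mzb1 had the same order of samples as Igkc in the 0%-Axitinib group. Txndc5 and Xbp1, which act in the secretory pathway of many cell types, and Sdc1, which encodes the cell surface proteoglycan syndecan-1, had log2 fold changes of 0.37, 0.27 and -0.21, none of which met the criterion, while Edem1 fell by 0.88. Without Prg2 the list summed to 838, 1105 and 949 CPM against 747, 831 and 758 CPM, highest in replicate 2, whereas with it replicate 3 was the highest, at 1413 CPM.

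In the list of rearrangement, switching and surrogate light chain genes, the 7 tested were Ung, Apobec3, Polh, Mki67, Bcl6, Bach2 and S1pr2. Rag1, Rag2, Dntt, Igll1 and the Vpreb genes did not pass the filter, so the list result does not cover them. Of the 7, 1 was lower, the proliferation gene Mki67 (-3.08, SE 1.23), and the median was -0.38. Mki67 lost its call without 0%-Axitinib replicate 3 (-0.56, SE 0.62, unadjusted p of 0.400 by edgeR), and Bcl6 then met the criterion (-0.62, SE 0.23). S1pr2, Bcl6 and Apobec3 had -0.26, -0.46 and -0.38. Of the Fc receptors and transporters, 4 of 10 tested were lower, namely Trim21, Ms4a2, Fcrl1 and Fcer1a, and the median was -0.26, but only Trim21 of these 4 reached the filter's cutoff in every 3%-Axitinib sample. Fcrl1 and Fcer1a lost their calls without 0%-Axitinib replicate 3 (-1.33 and -2.36, unadjusted p of 0.123 and 0.0558 by edgeR). The abundant receptors of this list did not meet the criterion, with 0.16 for Fcgrt, 0.11 for Fcgr3, 0.02 for Fcer1g and -0.07 for Fcgr2b. Of the B cell survival and homing signals, 2 of 10 were lower, Cxcl12 (-1.40, SE 0.51; -0.62 without 0%-Axitinib replicate 3) and its receptor Cxcr4 (-1.24, SE 0.22), with a median of -0.83. The medians of these 3 lists were -0.53, -0.39 and 0.06, with 1, 2 and 3 genes lower, once 0%-Axitinib replicate 3 was left out. Cxcl13 and Tnfsf13b had 1.16 and -0.29 and did not meet the criterion. Of the lymph node stroma genes, 1 of 3 tested was lower, Fut7, and the median was 0.33, with Enpp2 at 0.33, Cr2 at 7, 6 and 124 counts against 0, and Glycam1 at 25, 2 and 1 counts against 2, 1 and 4. Fut7 lost its call without 0%-Axitinib replicate 3 (-0.69, unadjusted p of 0.137 by edgeR), so that 0 of 3 were lower, with a median of 0.21.

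Markers of other cells were read in the same way. In the T cell list, 6 of 9 tested genes were lower, of which Cd4 and Lck reached the filter's cutoff in every 3%-Axitinib sample, and the median was -3.64, and 4 of 9 were lower without 0%-Axitinib replicate 3, with a median of -1.25. Cd3e had 5, 36 and 429 counts against 2, 13 and 2, Cd3d had 1, 27 and 1228 against 1, 0 and 0, and both were highest in replicate 3. Cd4 and Lck fell (-3.85, SE 0.64, and -3.80, SE 1.03; -3.02 and -1.96 without 0%-Axitinib replicate 3), and Il7r, the most abundant gene of this list, had -0.78 and met the criterion only without that sample (-1.25, SE 0.34). In the macrophage list, 0 of 12 tested genes met the criterion and the median was -0.065. The log2 fold changes were 0.21 for Lyz2, 0.20 for Cd68, 0.12 for C1qa, -0.20 for Csf1r and -0.96 for Adgre1. Without 0%-Axitinib replicate 3, Adgre1 was the 1 gene of this list lower by the criterion (-1.35, SE 0.26), and the median was -0.13. Of the plasmacytoid dendritic cell genes, 2 of 7 were lower (Irf8 and Siglech) and 1 was higher (Cox6a2, a subunit also used in muscle), with a median of -0.29 and with -0.24, -0.29 and 0.77 for Bst2, Tcf4 and Runx2. Without 0%-Axitinib replicate 3, 0 of these 7 were lower, as Irf8 and Siglech lost their calls (-0.61 and -1.08, unadjusted p of 0.0776 and 0.165 by edgeR), Cox6a2 was still higher, and the median turned to 0.29. In the skeletal muscle list, 12 of 14 tested genes were higher, of which 6 reached the filter's cutoff in every 0%-Axitinib sample, and the median was 7.06, with 7.35 for Tnnt3 and 8.19 for Myh1, while 9 of 14 were higher without 0%-Axitinib replicate 3. The most abundant, Acta1 and Myh4, had 7.35 and 6.77 and did not meet the criterion (unadjusted p of 0.0548 and 0.0719 by edgeR). In 3%-Axitinib replicate 2 Acta1 had 1 count, and this sample, with 21.3 CPM of muscle genes, also had the lowest summed immunoglobulin level of the group, at 27.0 CPM. Any link between muscle genes and the immunoglobulin level was not tested.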

How the data were processed

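Raw counts per gene symbol were taken as deposited. Upstream, reads were filtered (fastp) and aligned to mm10 (GRCm38) by STAR 2.5.2b, per the paper's methods and the submitters' processing notes. Reads that STAR placed at several positions were not counted, and neither the annotation release nor the use of strand is given in the sources used here. The 4 lines of reads given to no gene were left out of library sizes and tests. Counts were analysed with R 4.3.3 and edgeR 4.0.16 (TMM, filterByExpr with a minimum count of 10 and a minimum total of 15, quasi-likelihood test, Benjamini-Hochberg adjustment over 15257 genes), tested on simulated data. DESeq2 1.42.0, limma-voom (limma 3.58.1), other scalings and filters, a replicate block and leaving out each sample were alternatives, and a plasma cell list without Prg2 was added after seeing the data. Positions, exon lengths and sequences came from GENCODE M21. Named were all constant, joining, diversity and IGLV genes with at least 10 counts, the 8 IGHV and 8 IGKV segments with the highest summed CPM, and in each list the 4 most abundant and the defining genes. The members and lists were chosen with earlier results of these data known.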

Additional observations from a re-analysis of the deposited data

How the results depend on the processing

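The number of members lower by the criterion was 14 under edgeR with DESeq2's size factors, total counts or library sizes without immunoglobulin genes (11.8%, 16% and 11.7% of all tested genes were lower), 13 with DESeq2 (1961 of 15083 genes lower) and 13 with limma-voom (9.73%). It was 117 of 208 tested with no filter (9.44% of all genes) and 101 of 142 with a filter of 10 counts in all (11% of all genes), because more members were tested. Leaving out each sample in turn gave between 14 and 73, as between 15 and 78 members were tested, with 8.24% to 13.7% of all genes lower. By adjusted p, edgeR with Benjamini-Hochberg adjustment called 0 members (0.00655% of all tested genes), and with no filter 1 (0.0559%). DESeq2 called 13 of 13 (13% of all genes, and Ighd had no p there), and limma-voom called 0 (0.0131%). Without each sample, edgeR called between 0 and 7 members, and between 0% and 7.98% of all genes. The log2 fold changes of the 14 tested members were negative under each setting, in 111 values over other settings and 84 with a sample left out. The criterion was lost only by Ighd, in 2 of the former and 4 of the latter, and the cause was not tested. Its log2 fold change was -2.66 with limma-voom (unadjusted p of 0.212) and -2.84 with the replicate block (unadjusted p of 0.0654 by edgeR). Without 0%-Axitinib replicate 3 it was -1.16 (unadjusted p of 0.0629 by edgeR). Without 3%-Axitinib replicates 1, 2 and 3 in turn it was -4.475, -4.278 and -4.55, against -4.455 with all samples. The unadjusted p was then 0.0566 to 0.0638 by edgeR. The mean level of all immunoglobulin genes differed between 22.4-fold and 47.5-fold with a sample left out, and 36.4-fold on total counts. The replicate number as a block gave 13 lower (8.87% of all genes) and 0 adjusted calls (0.0131% of all genes). Same-numbered samples deviated together with r of 0.184, -0.135 and -0.174, and not every sample correlated best with its own number. With 3 samples a group, these values cannot show whether the numbers pair the samples. The number of immunoglobulin counts, between 297 and 949 each, limited the description of the 3%-Axitinib samples. The octamer search in promoters was not run.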
